A study of Mus musculus with 4 samples.

Results

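The immediate-early and heat-shock genes described here are 37 of the 31053 genes in the count tables, taken by gene symbol. They comprise 8 subunits of the AP-1 transcription factor family (Fos, Fosb, Fosl2, Jun, Junb, Jund, Atf3, Maff), 9 other early transcription factors (Egr1, Egr2, Egr3, Nr4a2, Nr4a3, Klf6, Klf10, Myc, Csrnp1), 3 dual-specificity phosphatases (Dusp1, Dusp2, Dusp5), 9 other early response genes (Ier2, Ier3, Ier5, Btg1, Btg2, Cyr61, Rhob, Gadd45b, Gadd45g) and 8 heat-shock genes (Hspa1a, Hspa1b, Hspa8, Hsp90aa1, Hsph1, Dnaja1, Dnajb1, Hspe1). All 37 were found in the tables, and all had UMIs (counted mRNA molecules) in every library. The study used droplet-based single-cell RNA sequencing to examine how diverse macrophages of the infarcted heart are. All mice were 12 to 16 weeks old and carried a CSF1R-EGFP reporter transgene, in which Csf1r regulatory sequence drives EGFP, so that mononuclear phagocytes but also some granulocytes and other cells are labelled. EGFP+ Ly6G- cells were sorted from digested hearts. The baseline group had no surgery and is 1 library, made from 3 pooled hearts, so its spread between animals is unknown. The infarct group is 3 libraries of 1 heart each, taken 7 days after ligation of the left coronary artery, with the remote myocardium removed.

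Immediate-early genes are transcribed within minutes of a stimulus from factors already present in the cell, and their mRNAs are short-lived. Fos and Jun family proteins pair to form AP-1, EGR and NR4A proteins are transcription factors of the same early wave, and DUSP phosphatases switch off the MAP kinases that start it. Heat-shock genes encode chaperones that keep proteins folded. Hspa1a and Hspa1b are the classical inducible HSP70 genes, whereas Hspa8 encodes the constitutive member of that family. Both gene programs are known to respond to growth factors, cytokines and stress, and also to the enzymatic digestion of a tissue. Here a single protocol text covers all 4 libraries, with digestion at 37 °C for about 30 to 45 min. The digestion time of each library is not given in the sources used here, so the part of digestion in any value below was not tested.

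Promoter sequence was read for the members that spread most among the infarct libraries (Hspa1a, Hspa1b), for the heat-shock gene that went the other way (Hspe1) and for the phosphatase gene that set cell types apart (Dusp5). The 250 bases before the RefSeq start site are printed 5′ to 3′ on the coding strand, from GRCm38.p6, with capitals marking the searched motif. Hspa1a (chr17:34972157-34972406, minus strand) and Hspa1b (chr17:34959239-34959488, minus strand) each held 1 heat-shock element of 2 units, GAANNTTC. Hspe1 (chr1:55087898-55088147, plus strand) held an array of such units, and Dusp5 (chr19:53528895-53529144, plus strand) held 2 CArG boxes, the motif bound by serum response factor.
Hspa1a: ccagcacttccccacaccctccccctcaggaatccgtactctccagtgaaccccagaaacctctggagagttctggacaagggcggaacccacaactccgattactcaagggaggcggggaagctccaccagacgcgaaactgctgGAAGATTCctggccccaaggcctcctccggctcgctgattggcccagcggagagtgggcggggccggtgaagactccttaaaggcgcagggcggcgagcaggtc
Hspa1b: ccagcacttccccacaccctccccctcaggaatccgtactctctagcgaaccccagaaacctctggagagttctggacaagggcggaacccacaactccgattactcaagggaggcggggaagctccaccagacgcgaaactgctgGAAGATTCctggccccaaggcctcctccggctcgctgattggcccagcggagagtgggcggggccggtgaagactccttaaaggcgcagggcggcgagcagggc
Hspe1: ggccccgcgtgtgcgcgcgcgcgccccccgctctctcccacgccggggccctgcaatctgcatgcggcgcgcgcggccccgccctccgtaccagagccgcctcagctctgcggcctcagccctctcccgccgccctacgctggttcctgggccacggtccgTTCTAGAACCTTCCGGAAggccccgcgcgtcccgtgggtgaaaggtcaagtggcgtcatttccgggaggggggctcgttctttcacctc
Dusp5: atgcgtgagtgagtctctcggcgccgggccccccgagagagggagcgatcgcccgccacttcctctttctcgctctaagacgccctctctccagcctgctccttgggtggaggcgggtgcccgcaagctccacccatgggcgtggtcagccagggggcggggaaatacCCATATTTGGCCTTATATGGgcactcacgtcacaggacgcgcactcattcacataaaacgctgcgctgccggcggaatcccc
The Hspa1a and Hspa1b windows were identical at 247 of 250 positions (98.8%). Their transcripts were 95.02% identical over 2711 aligned bases, whereas the last 300 bases, which a 3′ assay reads, were 75.4% identical over 240 aligned bases. Reads from identical stretches cannot be assigned to one copy, and default counting drops reads that match several genes. The levels of both genes, and their sum, may thus be low by an unknown share, and their split is uncertain too.

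Motifs were searched on both strands in windows of 300 bases (250 before and 50 after each start site), which were found for 30 of the 37 members. Windows for Egr1, Egr3, Ier2, Klf10, Myc, Hspa8 and Hsp90aa1 were not used here. A heat-shock element of 2 units (GAANNTTC or TTCNNGAA) was present in 15.1% of 32851 RefSeq windows and in 5 of the 6 heat-shock genes with a window, Hspa1a, Hspa1b, Hsph1, Dnaja1 and Hspe1. It was also present in 4 of the 24 other members with a window, Fosl2, Jun, Egr2 and Cyr61. The element of 3 units, GAANNTTCNNGAA, which overlaps the shorter one, was present in 0.603% of windows and in Hsph1 and Hspe1. The CArG box was found in 1.63% of windows and, among members, in Egr2 and Dusp5. The cyclic AMP response element TGACGTCA (1.79% of windows) was found in Btg2, Dusp1 and Maff, the EGR site GCGGGGGCG (2.91%) in Fosb, Fosl2, Dusp2 and Dnaja1, and the AP-1 site TGANTCA (7.81%) in Csrnp1. These matches describe the letters in the window and do not show that a factor bound there. Sequence outside the windows was not searched, so a member without a match may hold the motif elsewhere.

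After the filter of the study (500 to 40000 UMIs and over 200 genes), 10117 to 10782 cells were kept per library, with a median of 6398.5 UMIs per cell at baseline and 8469.5 to 8556.5 in the infarct libraries. The median mitochondrial share was 4.26% at baseline and 2.76 to 3.43% in the infarcts. Any 2 libraries shared 26 to 34 cell barcodes (0.256 to 0.330% of the smaller one). Cell types were assigned by marker genes, none of which is a member, on each cell's counts thinned to 2000 UMIs. Macrophages, cells with at least 8 UMIs from at least 3 of 8 macrophage markers such as C1qa and Adgre1 and no other lineage, made up 59.4% of kept cells at baseline and 71.99 to 80.1% in the infarcts. At baseline most macrophages were resident-like (Lyve1, Cd163 and Folr2 among their markers, 2779 cells) or MHC-II-high (2524 cells), with 174 reparative-like cells (Gpnmb, Spp1 and Trem2 among their markers). In the infarcts 2877 to 4048 cells were reparative-like, 2075 to 2644 MHC-II-high and 101 to 222 resident-like. Because the makeup differed so much, counts of members and the levels of some members are given below within types too. Levels of the other members are given over all macrophages only, where makeup can enter. Levels are CPM, counts per 1000000 UMIs after summing over the cells of a library, without mitochondrial genes.

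The first comparison asked how the members differed between infarct and uninjured hearts. With 1 baseline library no test was possible, so a member was counted when the infarct mean lay at least 2-fold from baseline with all 3 infarct libraries on the same side. Over all cells, no member was counted as higher (background 2.57% of 9184 genes) and 8 of 37 as lower (background 6.37%): Egr1, Egr3, Klf6, Myc, Cyr61, Rhob, Hspa1a and Hspa1b. In macrophages 2 were higher (Dusp2 and Csrnp1, background 3.21% of 9128 genes) and 11 lower (background 7.12%), the same 8 genes with Jun, Egr2 and Dnaja1. The median log2 ratio of infarct over baseline in macrophages was -0.51 for the 37 members, -0.35 for the 29 immediate-early and early response members and -0.99 for the 8 heat-shock genes, beside -0.21 for all genes. Scaling by trimmed mean of M-values (TMM) moved the median of all genes to 0.03, and the split became 4 higher and 8 lower in macrophages and 2 higher and 6 lower over all cells. Under that scaling the median of the members in macrophages was -0.26.

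**Figure D1:**
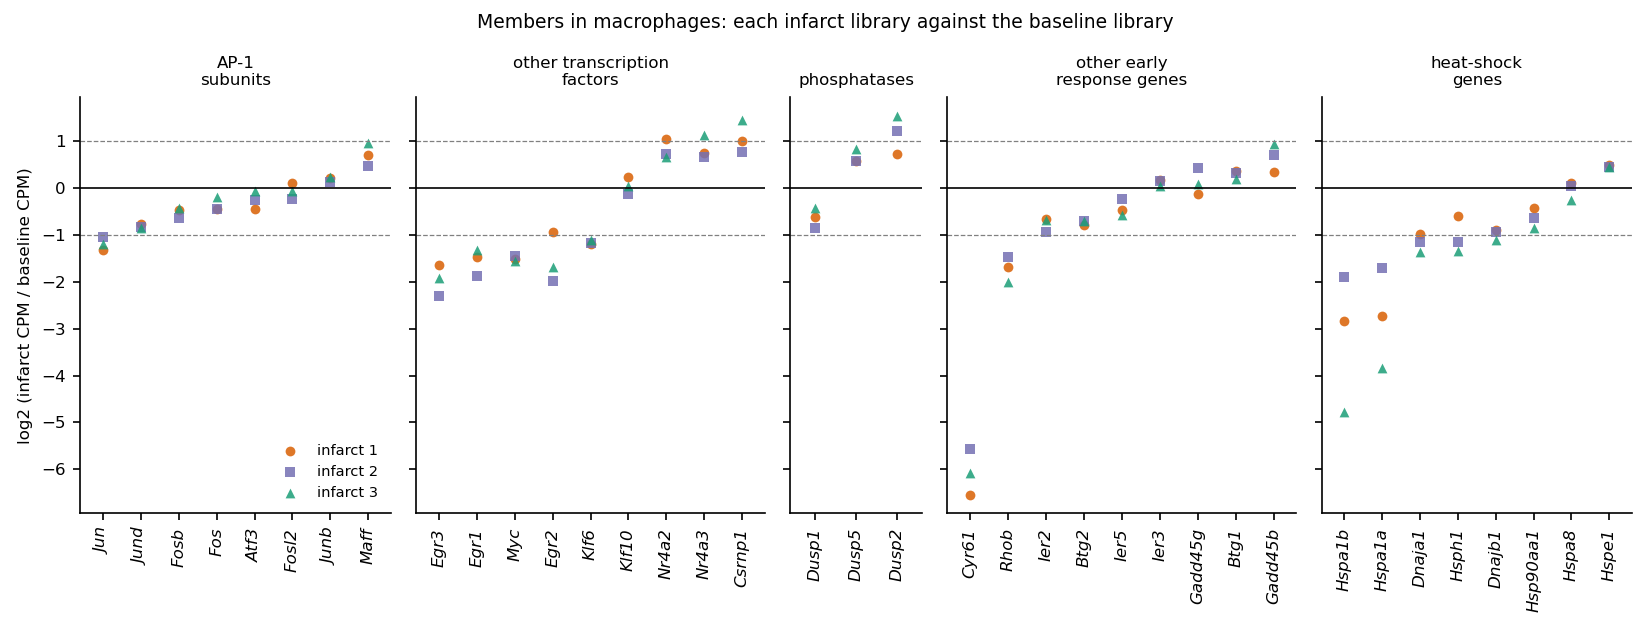
Log2 ratio of the CPM of each infarct library to the CPM of the baseline library in macrophages (vertical axis) for the 37 members, grouped by role (horizontal axis). Points are single libraries, the solid line is no difference and the dashed lines are 2-fold. Cyr61, Hspa1a and Hspa1b lie farthest below the line, and the 3 infarct libraries spread most for Hspa1a and Hspa1b.

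Among the AP-1 subunits, Jun was the one past 2-fold in macrophages. Its level was 1996 CPM in the baseline library and 799, 967 and 872 CPM in infarct libraries 1 to 3 (exact 95% Poisson interval of the baseline value 1983 to 2009 CPM, counting error only), so that every infarct library lay below baseline, 2.27-fold lower on average. Under TMM scaling its log2 ratio was -0.93, short of 2-fold, and those of Klf6 and Dnaja1 in macrophages were both -0.91. Over all cells Klf6 and Myc also fell short of 2-fold under that scaling, with log2 ratios of -0.82 and -0.88. Fos, the partner of Jun, was at 3393 CPM in the baseline library and 2488, 2508 and 2978 CPM in infarct libraries 1 to 3, 1.28-fold lower. Fosb (mean 559 ± 39.4 CPM in infarcts against 794 CPM at baseline, SD over 3 libraries) and Jund (816 ± 20.3 CPM against 1433 CPM) were lower in all 3 infarct libraries within 2-fold. Junb, an AP-1 subunit that can restrain Jun activity, was slightly higher in all 3, at 1181, 1122 and 1197 CPM against 1022 CPM. Atf3, a stress-induced member of the family, was at 550.2, 626 and 717 CPM against 750.5 CPM. Fosl2 straddled the baseline level, and the low-level Maff was higher in all 3 (6.69, 5.70 and 7.97 CPM against 4.11 CPM), below 2-fold.

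The other transcription factors went both ways. Egr1, induced by growth factor and stress signals, was at 1024 CPM in the baseline library and 372, 278 and 412 CPM in infarct libraries 1 to 3 (baseline interval 1015 to 1034 CPM). All infarct libraries were below baseline, and the mean was 2.90-fold lower. Its relatives Egr2 and Egr3 showed the same direction at low levels (21.5, 10.4 and 12.7 CPM against 40.96 CPM, and 5.56, 3.51 and 4.59 CPM against 17.3 CPM). Klf6, a zinc finger factor, was at 1342 CPM in the baseline library and 589.6, 596 and 619 CPM in infarct libraries 1 to 3, with the infarct libraries close together. Myc was at 8.71, 9.18 and 8.49 CPM against 24.9 CPM. In contrast, the orphan nuclear receptors Nr4a2 (45.9, 36.4 and 34.9 CPM against 22.1 CPM) and Nr4a3 (9.09, 8.56 and 11.8 CPM against 5.42 CPM) were higher in all 3 infarct libraries, below 2-fold. Csrnp1, an AXIN1-induced nuclear protein, was at 32.02, 27.01 and 43.4 CPM against 15.9 CPM, 2.14-fold higher, and Klf10 straddled baseline.

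The phosphatases also divided. Dusp1, which inactivates MAP kinases including p38 and JNK, was at 1729 CPM in the baseline library and 1125, 961 and 1286 CPM in infarct libraries 1 to 3, lower in all 3 infarcts and within 2-fold. Dusp2, a nuclear phosphatase of immune cells, was at 25.4 CPM in the baseline library and 41.7, 59.4 and 73.4 CPM in infarct libraries 1 to 3, 2.29-fold higher. Over all cells the Dusp2 libraries straddled baseline (53.5 CPM and 41.8, 60.5 and 76.1 CPM). By type, all 3 infarct libraries were above baseline for Dusp2 in 4 of 10 types and below it in 2. Dusp5, which acts on ERK in the nucleus, was at 10.4, 10.4 and 12.4 CPM against 6.93 CPM in macrophages and at 18.7, 16.5 and 20.7 CPM against 31.1 CPM over all cells, the opposite order. The Dusp5 level was far higher in non-classical monocyte-like cells, as given below, and these numbered 1076 at baseline and 76 to 115 in the infarct libraries. The part of this makeup in the opposite order was not tested.

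Of the other early response genes, Cyr61 and Rhob differed most. Cyr61, also called Ccn1, encodes a secreted matricellular protein that binds integrins. In macrophages it was at 119 CPM in the baseline library and 1.28, 2.50 and 1.76 CPM in infarct libraries 1 to 3 (baseline interval 116 to 122 CPM), 64.4-fold lower on average. All infarct libraries lay near the lower end of detection. Rhob, a small GTPase of endosomes, was at 613 CPM in the baseline library and 191, 221 and 154 CPM in infarct libraries 1 to 3 (baseline interval 606 to 620.5 CPM), 3.25-fold lower. Btg2, an antiproliferative gene, was at 834, 894 and 887 CPM against 1448 CPM, and Ier2 and Ier5 were also lower in all 3 libraries within 2-fold. Gadd45b, a stress sensor that acts on MAP kinase signalling, was at 122, 156 and 186 CPM against 96.3 CPM, higher in all 3 and within 2-fold. Ier3, an early response gene that modulates cell survival, and Btg1 were slightly higher in all 3, whereas Gadd45g straddled baseline.

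In baseline macrophages Cyr61 UMIs were found in 15.1% of the 6083 thinned cells (exact 95% interval 14.2 to 15.999%, counting error only), and in 0.227, 0.428 and 0.365% of infarct macrophages. Among the 756 baseline classical monocyte-like cells, which passed the same thinning, 1 had a Cyr61 UMI (0.132%). Median depths before thinning were 6884 UMIs in these macrophages and 8144 UMIs in the monocytes. Baseline endothelial-like cells, few as they were (74), carried Cyr61 in 64.9%. In the infarcts the gene was found in fibroblast-like cells, at 568, 356 and 119 CPM in 36, 9 and 14 cells. The summed level of 10 endothelial markers in the macrophages, all 10 of them detected in each library, was 48.97 CPM at baseline and 33.1, 25.7 and 33.5 CPM in the infarcts. The 9 fibroblast markers summed to 11.6 CPM at baseline and 54.8, 59.7 and 60.4 CPM in the infarcts. The part of RNA from these cells in the Cyr61 value was not tested. Cyr61 was also higher in shallow cells, with 177, 138 and 88.2 CPM in the tertiles of baseline macrophages from the lowest to the highest UMI count, and each of these was above every infarct library.

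The heat-shock genes did not differ as a block. Hspa1a was in macrophages at 506 CPM in the baseline library and 76.5, 155 and 35.3 CPM in infarct libraries 1 to 3 (baseline interval 499 to 512 CPM), 5.69-fold lower on average. Hspa1b was at 371 CPM in the baseline library and 52.1, 99.7 and 13.6 CPM in infarct libraries 1 to 3 (baseline interval 365 to 376 CPM), 6.73-fold lower. Both lay below baseline in every infarct library, and both differed widely among the infarcts. Without infarct library 2, the highest, Hspa1a was 9.04-fold and Hspa1b 11.3-fold lower in macrophages, and over all cells they were 7.08-fold and 8.69-fold lower, against 4.42-fold and 5.18-fold with all 3. Dnaja1 and Dnajb1 encode co-chaperones of the HSP40 family, and both were lower in all 3 (244, 219 and 188 CPM against 482 CPM, and 39.8, 38.8 and 34.5 CPM against 74.2 CPM). Hsph1, a nucleotide exchange factor for HSP70, was at 31.7, 21.6 and 19.1 CPM against 48.1 CPM, just short of 2-fold, as was Dnajb1. Hsp90aa1, the inducible cytosolic HSP90, was 1.54-fold lower. The constitutive Hspa8 was at 1497 CPM in the baseline library and 1614, 1534 and 1248 CPM in infarct libraries 1 to 3, so that baseline lay within the infarct range. Hspe1, the mitochondrial co-chaperonin HSP10, was higher in all 3, at 278, 272 and 271 CPM against 199 CPM. Without Hspa1a and Hspa1b, the summed heat-shock level in macrophages was 2846 CPM at baseline and 2614, 2434 and 2065 CPM in the infarcts.

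Mitochondrial share and depth differed between the groups, so the same values were read in tertiles of macrophages. In the tertile of baseline macrophages with the lowest mitochondrial share (median 3.15%), Egr1 was at 882 CPM and Hspa1a at 479 CPM. In the tertile with the highest share in infarct libraries 1 to 3 (medians 4.91, 4.69 and 4.13%), Egr1 was at 419, 307 and 459 CPM and Hspa1a at 71.7, 153 and 33.02 CPM. Within each library Egr1 was higher in the tertile with more mitochondrial UMIs, from 882 to 1239.6 CPM at baseline. Cells in the deepest tertile of each library had less Jun than those in the shallowest, with 1771 against 2290.0 CPM at baseline and 638 against 1004 CPM in infarct library 1.

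The gap between infarct and baseline was also read within cell types. The summed level of the 29 immediate-early and early response members in resident-like macrophages was 17411 CPM at baseline and 9591, 12429 and 9873 CPM in the infarcts. Cells of the 4 libraries were also clustered together, without correction for library. With 1 baseline library, kind of cell and library cannot be told apart in the clusters. The resident-like cells of the groups lay in different clusters. Cluster 10, which took the resident-like name, held 66.8% of them at baseline, whereas cluster 7, in which no type led, held 74.9 and 62.6% in infarct libraries 1 and 3, and infarct library 2 was split over clusters 0 (26.7%) and 10 (24.8%). Chosen after seeing the data, the sum within the resident-like cells of cluster 10 was 16531 CPM at baseline and 15343, 14123 and 14599 CPM in the infarcts, the latter from 8, 25 and 13 cells. In cluster 7 it was 7949 and 7348 CPM in infarct libraries 1 and 3, where baseline had 2 resident-like cells. The baseline value was above the infarct libraries in cluster 10 too, by less than over all resident-like cells. In MHC-II-high macrophages it was 19312 CPM at baseline and 13124, 13392 and 14479 CPM, again with baseline above all 3 infarct libraries. Cluster 3 held 81.1% of these cells at baseline, and clusters 1 and 2 were the leading ones in each infarct library (21.6 to 40.3% each). In reparative-like macrophages, however, it was 10369 CPM at baseline and 10188, 10399 and 11359 CPM, and baseline lay within the infarct range (cluster 4 led at baseline with 57.5% of cells and cluster 0 in each infarct library with 28.8 to 38.0%). The summed CPM of classical monocyte-like cells (14109 CPM at baseline and 11647, 15138 and 14041 CPM) overlapped baseline. So did that of non-classical monocyte-like cells (13385 CPM at baseline and 11586, 15081 and 13023 CPM). Whether these gaps differ between types was not tested.

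The members past 2-fold were also counted by type. In resident-like macrophages 2 of the 35 members with enough UMIs were higher and 8 lower (background 3.87% and 5.78%). In MHC-II-high macrophages 4 of 37 were higher and 8 lower (background 2.44% and 5.93%). In reparative-like macrophages 2 of 36 were higher and 4 lower (background 2.99% and 3.96%). In classical monocyte-like cells 7 of 35 were higher and 1 lower (background 2.85% and 4.23%). Their 7 higher members were Egr2, Ier3, Nr4a3, Myc, Maff, Csrnp1 and Gadd45b, and Rhob was the lower one. Non-classical monocyte-like cells had 2 of 32 higher and 2 lower (background 1.82% and 2.89%), and dendritic-like cells had 3 of 36 higher and 4 lower (background 4.31% and 6.63%). The 4 types with 41 to 102 baseline cells rested on the fewest UMIs. Of them, interferon-response-like macrophages had 2 of 36 members higher and 9 lower (background 4.43% and 12.2%), proliferative-like cells 1 of 36 and 7 (4.21% and 9.43%), granulocyte-like cells 8 of 37 and 7 (10.2% and 15.1%), and B-cell-like cells 3 of 36 and 9 (7.57% and 14.9%).

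Some members kept 1 direction in every type. Klf6, Rhob and Cyr61 were below baseline in all 3 infarct libraries in 10 of 10 types, whereas 4.42% of the 7468 genes with enough UMIs in every type did so. Cyr61 had too few UMIs for a ratio in 3 of these types. Rhob passed 2-fold in 9 of the 10, as in classical monocyte-like cells (293 CPM at baseline and 131, 147 and 82.3 CPM) and dendritic-like cells (114 CPM and 32.3, 35.97 and 23.8 CPM). Hspe1 was above baseline in 9 of 10 types, the exception being reparative-like macrophages (325 CPM and 277, 267 and 259.8 CPM). Gadd45b was above in 8 of 10 and passed 2-fold in 5, all outside the macrophages: both monocyte types, dendritic-like, granulocyte-like and B-cell-like cells. For example, Gadd45b in dendritic-like cells was at 154 CPM at baseline and 268, 373 and 308 CPM in the infarcts.

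Ier3 was past 2-fold above baseline in 4 types and straddled it in 3. In classical monocyte-like cells it was at 81.2 CPM in the baseline library and 483, 579 and 403 CPM in infarct libraries 1 to 3, above baseline in each and 6.01-fold on average. These cells also lay in different clusters. Cluster 14, which took the classical monocyte-like name, held 85.2% of them at baseline and 17.9, 29.6 and 58.7% in the infarcts, and cluster 9, in which no type led, held 4.23% at baseline and 68.7, 48.7 and 26.6% in the infarcts. Within cluster 14 alone Ier3 was at 65.3 CPM at baseline and 274, 265 and 337 CPM in the infarcts, and within cluster 9 at 411 CPM (32 cells) and 553, 706 and 574 CPM. Infarct libraries were above baseline in both clusters, by less in cluster 9. In dendritic-like cells it was at 103 CPM and 261, 240.3 and 249 CPM, and in non-classical monocyte-like cells at 30.3 CPM and 53.2, 58.7 and 141 CPM, where the ratio was 1.85-fold without infarct library 3. In resident-like macrophages it was instead at 434 CPM and 441, 483 and 414 CPM, where baseline lay within the infarct range. Jun in resident-like macrophages was at 2231 CPM and 565, 1492 and 709 CPM, and in reparative-like macrophages at 886 CPM and 733, 883 and 804 CPM, a narrow gap. Egr1 was lower than baseline in the infarcts by over 2-fold in 5 types, including MHC-II-high macrophages (1069.7 CPM and 488, 399 and 597 CPM), and higher in all 3 infarcts in classical monocyte-like cells (96.2 CPM and 136, 119 and 205 CPM).

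**Figure D2:**
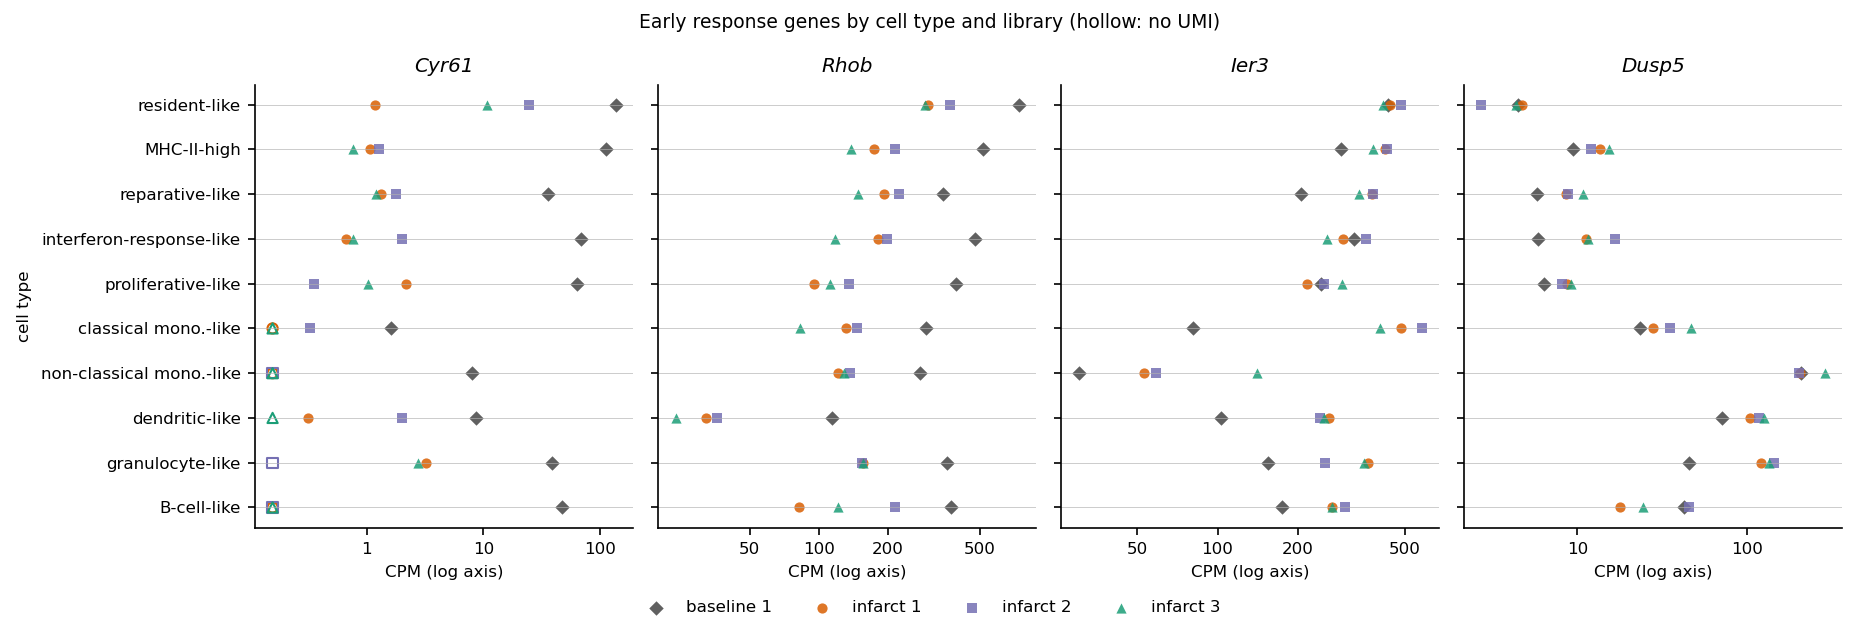
CPM on a log axis (horizontal) in 10 cell types (vertical) for Cyr61, Rhob, Ier3 and Dusp5, with 1 point per library and hollow points where a library had no UMI. Rhob sits below baseline in every type, Ier3 sits above it in classical monocyte-like cells (483, 579 and 403 against 81.2 CPM), and Dusp5 separates cell types more than it separates libraries.

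Hspa1a and Hspa1b were below baseline by over 2-fold in 8 of 10 types, the exceptions being the monocyte types. In classical monocyte-like cells Hspa1a was at 74.6 CPM at baseline and 61.1, 146 and 20.5 CPM in the infarcts, and in resident-like macrophages at 522 CPM and 65.8, 207 and 21.8 CPM. Without infarct library 2, Hspa1a was 11.9-fold lower in resident-like macrophages, against 5.32-fold with all 3. The baseline level itself differed between these types, and the infarct libraries straddled it in the monocytes. Hspa1a UMIs were found in 39.8% of baseline macrophages and in 8.97, 18.96 and 6.08% of infarct macrophages, and in 9.26% of baseline classical monocyte-like cells.

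The 3 infarct libraries differed from one another in these genes more than in other members. In macrophages the highest library was 4.38 times the lowest for Hspa1a and 7.34 times for Hspa1b, against a median of 1.12 over 2970 genes with at least 50 CPM, which put them at percentiles 99.7 and 99.8. Infarct library 2 was highest and infarct library 3 lowest in 10 of 11 cell populations for each gene, these being the 10 types and the macrophages of no named type. The next members by this measure, among those with at least 50 CPM, were Gadd45b (1.52) and Egr1 (1.48), whereas Hspe1 (1.03), Jund (1.05) and Klf6 (1.05) were close in all 3. With 1 heart per library, the animal and its handling cannot be told apart. The reference to a single baseline library is most uncertain for Hspa1a and Hspa1b, given this spread.

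**Figure D3:**
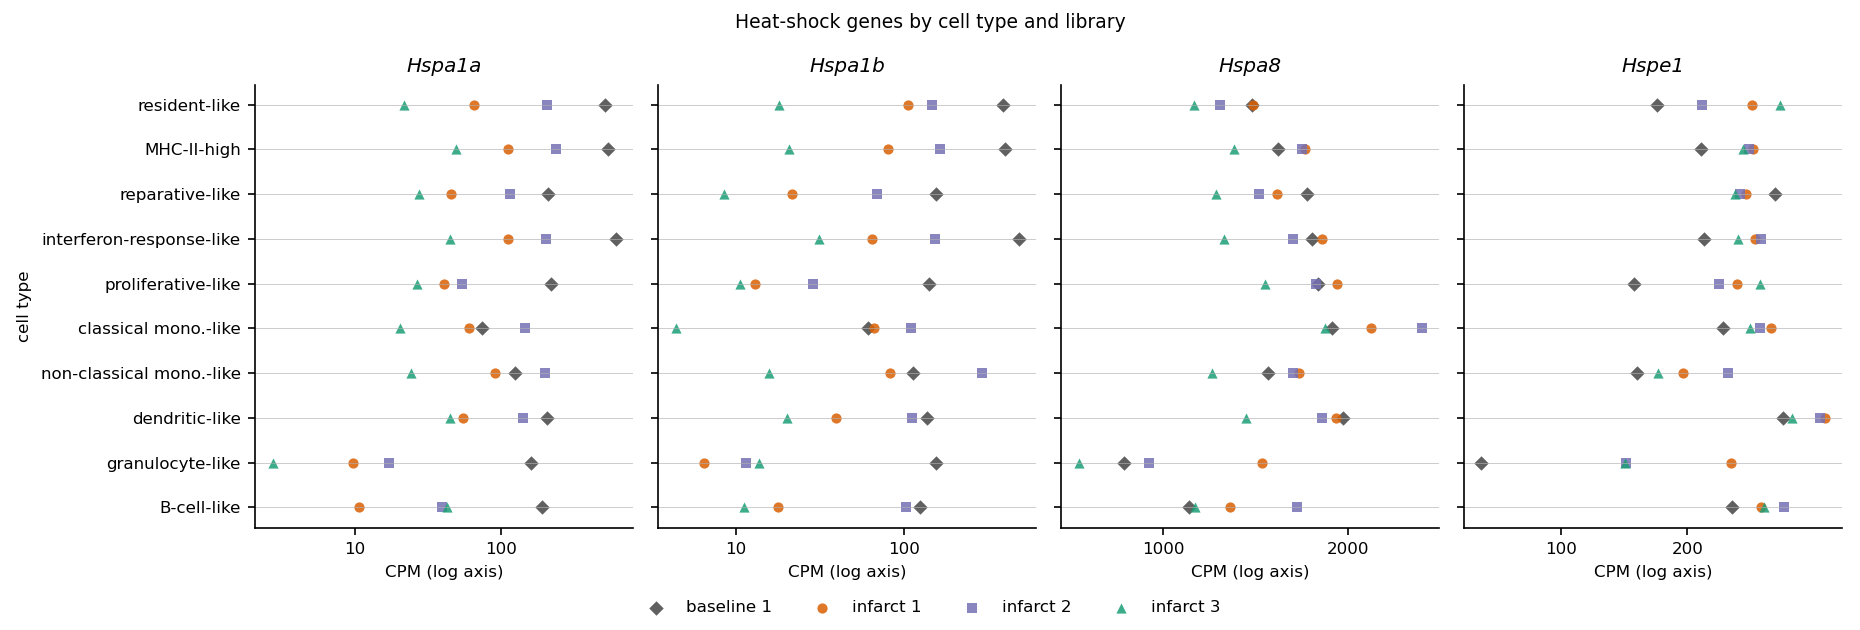
CPM on a log axis (horizontal) in 10 cell types (vertical) for Hspa1a, Hspa1b, Hspa8 and Hspe1, with 1 point per library. For Hspa1a and Hspa1b infarct library 2 is above 1 and 3 in most types and baseline is highest outside the monocytes. The infarct mean of Hspa8 stays within 2-fold of baseline in every type, and Hspe1 is above baseline in all 3 infarct libraries in 9 of 10 types.

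The second comparison asked which members set a cell type apart within the infarcts. Counts summed over the cells of a type and over all other cells of the same library were compared with edgeR across the 3 infarct libraries, with the library as a block, and a member was called at an adjusted p (Benjamini-Hochberg, over all genes tested) under 0.01. The types with the most members called were MHC-II-high macrophages (27 of 37, background 13.8%), proliferative-like cells (24, background 21.1%), dendritic-like cells (24, background 32.7%) and reparative-like macrophages (23, background 26.5%). The other cells of an MHC-II-high comparison are largely reparative-like cells and the reverse, so the 2 results are not independent.

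In MHC-II-high macrophages 25 members were higher and 2 lower, where the background over 13597 genes was 6.64% and 7.11%. They included 7 of 8 AP-1 subunits and 5 of 8 heat-shock genes. Egr1 was at 488, 399 and 597 CPM against 297, 227 and 356 CPM outside the type (log2 fold change 0.87, SE 0.0328, adjusted p = 1.25e-05). Fos was at 2815, 2947 and 3382 CPM against 2275, 2415 and 2796 CPM (log2 fold change 0.40). In each library the MHC-II-high cells were the higher, while the differences were small for most members, with a median log2 fold change of 0.28 over the 37. Larger differences were found for Dusp2 (at 58.3, 106 and 129 CPM against 35.97, 48.6 and 61.8 CPM, log2 fold change 1.08, SE 0.0800, adjusted p = 0.000163) and Hspa1b (at 80.1, 163 and 20.6 CPM against 43.01, 84.6 and 11.9 CPM, log2 fold change 1.00). Dusp5 and Cyr61 were the 2 lower members. Fewer members were called without the block (2, Junb and Btg2) and without infarct library 2 or 3 (14 and 13). The calls over all genes fell too. Without the block 50 were higher and 210 lower of 13259 genes. Without infarct library 2 these were 231 and 415 of 13391, and without infarct library 3 they were 243 and 389 of 13302. Against other macrophages only, Dusp5 was instead higher, with a log2 fold change of 0.52.

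Reparative-like macrophages showed the opposite pattern, with 2 members higher (Rhob and Gadd45g) and 21 lower, where the background over 13656 genes was 11.9% and 14.6%. The lower ones included 8 of the 9 early transcription factors other than AP-1, all but Klf6. Nr4a3 was at 7.43, 5.82 and 8.99 CPM against 17.3, 17.4 and 19.99 CPM (log2 fold change -1.22, SE 0.0943, adjusted p = 0.000148), and Nr4a2 was at 37.7, 31.9 and 28.3 CPM against 65.1, 57.2 and 50.99 CPM (log2 fold change -0.74). Both receptors were lower in every library. Ier2 was at 164, 160.2 and 178 CPM against 297, 239 and 295 CPM (log2 fold change -0.63, SE 0.0524, adjusted p = 0.000191), and Hsp90aa1 was at 332, 303 and 258 CPM against 488, 434 and 355 CPM (log2 fold change -0.42). Fos, Jun, Atf3, Klf6 and Dusp1 did not pass the test here, with log2 fold changes of -0.06, 0.02, -0.07, 0.04 and -0.13. Without the block 6 members were called, beside 585 genes higher and 850 lower of 13308 over all genes.

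Proliferative-like cells, marked by genes such as Mki67 and Top2a, had 2 members higher and 22 lower (background 11.8% and 9.35% of 13687 genes). Junb was at 631, 651 and 619 CPM against 1229, 1176 and 1243 CPM (log2 fold change -0.99, SE 0.0636, adjusted p = 2.87e-07). Btg1, an antiproliferative gene like Btg2, was at 293, 325 and 279 CPM against 534, 517 and 468 CPM (log2 fold change -0.81). Every library was lower for both. The higher members were Myc (log2 fold change 0.74, SE 0.172, adjusted p = 0.00667) and Hsp90aa1, at 676, 639.5 and 629.8 CPM against 432, 371 and 306 CPM (log2 fold change 0.77). Without infarct library 2 the count was 7, beside 864 genes higher and 336 lower of 13392 over all genes. Without the block it was 12, beside 1450 higher and 774 lower of 13247.

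Resident-like macrophages of the infarcts had 6 members higher and 10 lower (background 5.13% and 5.53% of 13556 genes). Rhob was at 299, 373 and 288 CPM against 173, 205 and 140.4 CPM (log2 fold change 0.76, SE 0.140, adjusted p = 3.94e-05), and Egr1 at 529, 588 and 556 CPM against 344, 261 and 404 CPM (log2 fold change 0.61). Both phosphatases Dusp2, at 14.2, 25.98 and 12.1 CPM against 42.4, 60.8 and 77.7 CPM (log2 fold change -2.05, SE 0.207, adjusted p = 2.48e-11), and Dusp5 (log2 fold change -2.34) were lower, as was Atf3 (log2 fold change -1.31). These 3 lower calls, of Dusp2, Dusp5 and Atf3, remained without the block, the count being 3. Over all genes 143 were then higher and 152 lower of 13147. The total count was 7 without infarct library 1, beside 291 genes higher and 317 lower of 13246. It was 9 without infarct library 3, beside 347 higher and 380 lower of 13184.

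Interferon-response-like macrophages had 13 members higher and 2 lower (background 7.76% and 4.28% of 13675 genes), with 5 of 8 heat-shock genes among the higher. Dnaja1 was at 379.5, 339.6 and 242 CPM against 265, 233 and 199 CPM (log2 fold change 0.61, SE 0.0581, adjusted p = 2.19e-06), and Hspa1a was at 112, 205 and 45.2 CPM against 72.7, 149 and 34.5 CPM (log2 fold change 0.66). Without the block edgeR called 0 members, with 11 at an unadjusted p under 0.05, whereas DESeq2 with the block called 15. Over all genes 657 were higher and 153 lower of 13272 without the block, and 977 and 366 of 13214 with DESeq2. Without infarct library 1 the count was 9, beside 882 genes higher and 317 lower of 13316.

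**Figure D4:**
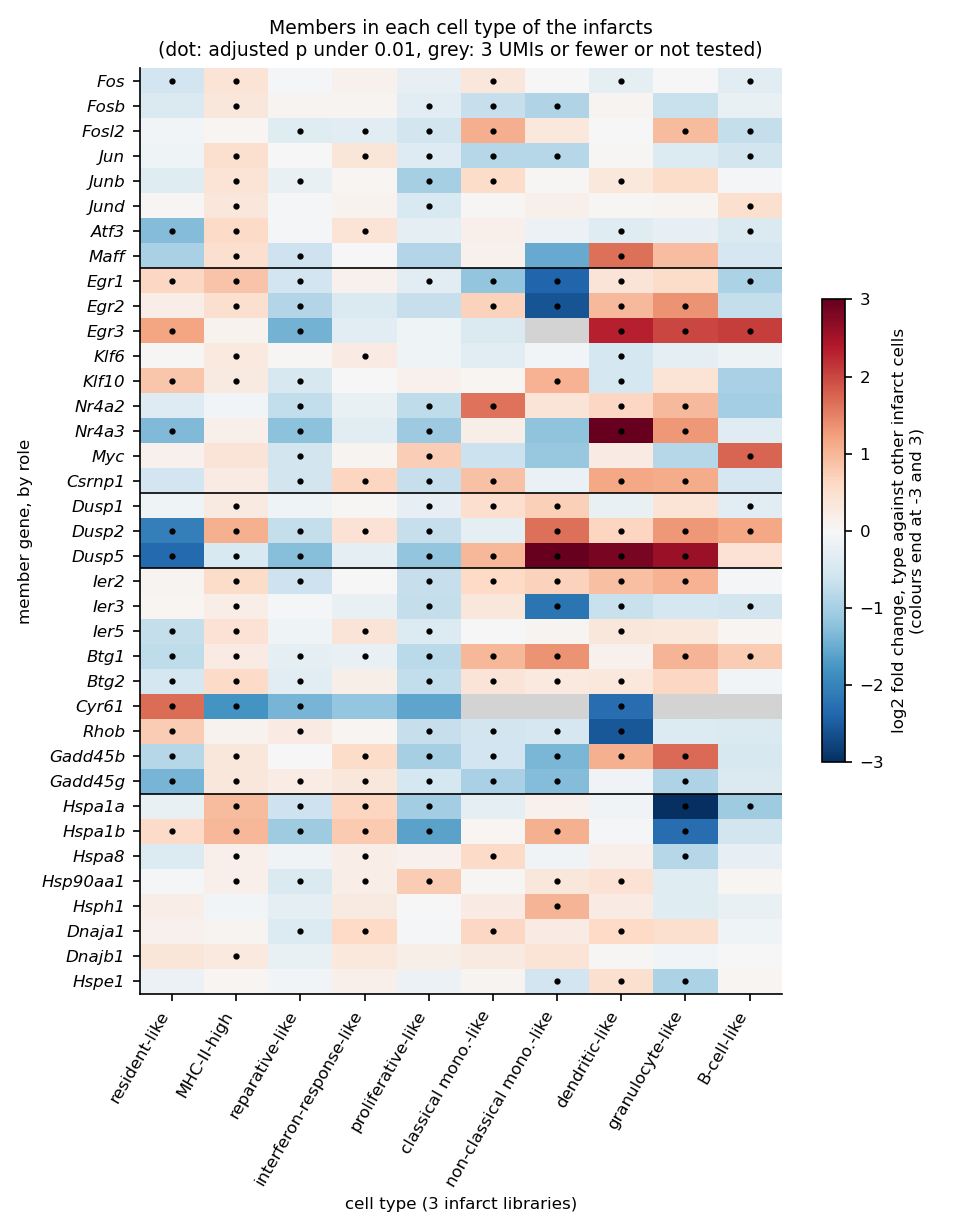
Log2 fold change (colour) of each member (rows, by role) in each cell type (columns) against all other cells of the 3 infarct libraries, with a dot where the adjusted p is under 0.01. MHC-II-high macrophages are mostly red with 25 members higher, reparative-like macrophages and proliferative-like cells are mostly blue with 21 and 22 lower, and Dusp5 is deepest red in non-classical monocyte-like, dendritic-like and granulocyte-like cells.

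The phosphatase Dusp5 showed the strongest contrast among types. In non-classical monocyte-like cells it was at 204, 202 and 285 CPM against 18.005, 15.5 and 18.9 CPM (log2 fold change 3.66, SE 0.141, adjusted p = 9.36e-145). In dendritic-like cells it was at 103, 116 and 126 CPM against 15.6, 14.3 and 18.3 CPM (log2 fold change 2.84), and in granulocyte-like cells at 119, 143 and 134 CPM against 18.4, 16.2 and 20.2 CPM (log2 fold change 2.58). All libraries of these 3 types lay above all libraries of the other cells. The promoter window of Dusp5 printed above is the one with 2 CArG boxes, and whether these bear on the contrast was not tested. Reparative-like macrophages were lower, at 8.58, 8.77 and 10.8 CPM against 23.6, 21.9 and 27.01 CPM (log2 fold change -1.28). At baseline Dusp5 was likewise at 207 CPM in non-classical monocyte-like cells and 4.48 CPM in resident-like macrophages.

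Non-classical monocyte-like cells had 10 members higher and 10 lower (background 9.67% and 11.1% of 13353 genes), including all 3 phosphatases among the higher. Dusp1 was at 1695, 2059 and 2117 CPM against 1121, 986 and 1282 CPM (log2 fold change 0.72, SE 0.0851, adjusted p = 5.63e-16) and Btg1 at 1180.2, 1644 and 1178 CPM against 527, 505 and 457 CPM (log2 fold change 1.34). Egr1 was lower, at 50.3, 86.97 and 64.4 CPM against 348, 264 and 409.9 CPM (log2 fold change -2.39, SE 0.141, adjusted p = 4.31e-62), and so was Ier3, at 53.2, 58.7 and 141 CPM against 405, 404 and 366 CPM (log2 fold change -2.20). Egr3, with no UMI in this type in the infarct libraries, was among the 10 lower members. Without the block 11 members were called, beside 1007 genes higher and 1005 lower of 12950 over all genes.

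Classical monocyte-like cells had 13 members higher and 7 lower (background 11.9% and 13.8% of 13624 genes). Nr4a2 was at 125, 158 and 134 CPM against 52.4, 42.98 and 39.8 CPM (log2 fold change 1.63, SE 0.118, adjusted p = 1.81e-06) and Fosl2 at 201, 220.3 and 223 CPM against 112, 93.7 and 98.9 CPM (log2 fold change 1.09). Fos was among the higher and Jun among the lower members (log2 fold changes 0.35 and -0.86, adjusted p = 0.00937 and 0.000138). Egr1 was lower, at 136, 119 and 205 CPM against 359, 268 and 413 CPM (log2 fold change -1.18, SE 0.0921, adjusted p = 3.13e-06). The constitutive chaperone Hspa8 was higher, at 2178, 2638 and 1836 CPM against 1659, 1584 and 1256 CPM (log2 fold change 0.57). Without the block 10 members were called, beside 1131 genes higher and 1430 lower of 13199 over all genes.

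Dendritic-like cells had 17 members higher and 7 lower (background 15.2% and 17.5% of 13787 genes). Nr4a3, which takes part in dendritic cell migration, was at 97.01, 154 and 104 CPM against 10.98, 9.49 and 13.7 CPM (log2 fold change 3.37, SE 0.147, adjusted p = 2.59e-13). Egr3 was at 20.1, 28.5 and 33.5 CPM against 6.60, 3.56 and 5.83 CPM (log2 fold change 2.34) and Maff at 19.2, 24.98 and 27.6 CPM against 7.47, 6.09 and 8.76 CPM (log2 fold change 1.66). Every library was higher for these 3 genes. Rhob was the lowest relative to other cells, at 32.3, 35.97 and 23.8 CPM against 181, 210.2 and 147 CPM (log2 fold change -2.54, SE 0.0917, adjusted p = 1.39e-14). Of the chaperones, Hspe1 was at 426, 416 and 356 CPM against 288, 291 and 275 CPM (log2 fold change 0.48). Most of these cells were of the conventional type 2 (253, 165 and 162 cells in infarct libraries 1 to 3), and 65, 40 and 25 were mature. Nr4a3 was at 365, 584 and 393 CPM in the mature cells and at 48.7, 79.3 and 63.4 CPM in those of conventional type 2, so the mature cells were higher in each library. Without the block 14 members were called, beside 1677 genes higher and 1762 lower of 13312 over all genes.

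Granulocyte-like cells (50, 46 and 91 cells, from a sort that kept Ly6G- cells) had 11 members higher and 5 lower (background 3.73% and 7.17% of 13376 genes). Gadd45b was at 309.9, 875 and 748 CPM against 126, 158 and 183 CPM (log2 fold change 1.69, SE 0.198, adjusted p = 1.38e-15). Hspa1a was lower, on 7 UMIs in all (log2 fold change -3.41, SE 0.392, adjusted p = 3.24e-16), as were Hspa1b, Hspa8 and Hspe1. The count was 8 without infarct library 2, beside 318 genes higher and 580 lower of 13177 over all genes. It was 7 without infarct library 3, beside 261 and 357 of 13041. It was 4 without the block, beside 397 and 451 of 12967, and 9 with DESeq2, beside 499 and 408 of 12437. B-cell-like cells (32, 20 and 62 cells) had 5 members higher and 8 lower (background 3.23% and 2.69% of 13374 genes). Btg1 was higher, at 803, 979 and 883 CPM against 528, 510.1 and 459 CPM (log2 fold change 0.77, SE 0.104, adjusted p = 9.21e-12), and Egr1 lower, at 199.8, 187 and 178 CPM against 348, 263 and 409 CPM (log2 fold change -0.94). That count was 5 without infarct library 1, beside 276 genes higher and 173 lower of 13087 over all genes. It was 7 without infarct library 3, beside 204 and 161 of 13031. It was 2 without the block, beside 261 and 53 of 12969, and 5 with DESeq2, beside 416 and 111 of 12825.

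Other genes of the same pathways were read from 4 further lists. Of 32 other early response genes, 30 could be compared between infarct and baseline over all cells, of which none was higher and 6 were lower past 2-fold (background 2.57% and 6.37%). The 3 with the widest gap were Klf2, a zinc finger factor that restrains myeloid activation (1146 CPM at baseline and 409, 309 and 295 CPM in the infarcts), Dusp6, an ERK phosphatase (198 CPM at baseline and 65.9, 56.7 and 59.04 CPM), and Klf9 (62.3 CPM at baseline and 20.7, 9.87 and 30.9 CPM). Of 21 cytosolic chaperones and co-chaperones 1 was lower, and none of 7 mitochondrial or 14 endoplasmic reticulum chaperones passed 2-fold in either direction. Within the infarcts, 14 of 31 early response genes were higher and 1 lower in MHC-II-high macrophages (background 6.64% and 7.11%), with Nfkbiz at a log2 fold change of 0.77 (SE 0.0350, adjusted p = 2.37e-05). In reparative-like macrophages 3 of 31 were higher and 19 lower (background 11.9% and 14.6%). In proliferative-like cells 18 of 32 were lower (background 9.35%), with Nfil3 at -1.62 (SE 0.127, adjusted p = 1.79e-06). In non-classical monocyte-like cells 17 of 32 were higher and 3 lower (background 9.67% and 11.1%), whereas 7 early members were higher and 9 lower. Granulocyte-like cells had 12 and 3 (3.73% and 7.17%) and classical monocyte-like cells 11 and 7 (11.9% and 13.8%). Interferon-response-like macrophages had 9 and 4 of 31 (7.76% and 4.28%) and dendritic-like cells 7 and 9 (15.2% and 17.5%). Resident-like macrophages had 3 and 5 (5.13% and 5.53%) and B-cell-like cells 2 and 3 (3.23% and 2.69%). Of the 22 cytosolic chaperones and co-chaperones, 4 were higher in proliferative-like cells (background 11.8%), led by the HSP90 co-chaperone Stip1 at 0.80 (SE 0.101, adjusted p = 9.59e-05). Of 14 endoplasmic reticulum chaperones, 9 were lower in non-classical monocyte-like cells (background 11.1%), 7 were lower in granulocyte-like cells (background 7.17%) and 5 were higher in classical monocyte-like cells (background 11.9%).

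Values per cell were read after thinning every cell to 2000 UMIs. The 29 immediate-early and early response members summed to a median of 30 at baseline and 20, 20 and 22 UMIs per macrophage in infarct libraries 1 to 3. Cells spread widely around it, with a 10th to 90th percentile of 10 to 66 UMIs at baseline and 6 to 44, 6 to 44 and 5 to 51 UMIs in the infarcts. In MHC-II-high macrophages the medians were 33 at baseline and 23, 23 and 26, and in reparative-like macrophages 20 at baseline and 18, 18 and 19. Granulocyte-like cells had the highest medians, 51 at baseline and 37, 39 and 49, in libraries with 41 to 91 such cells. The 8 heat-shock genes summed to a median of 5 at baseline and 5, 5 and 4 UMIs in macrophages.

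**Figure D5:**
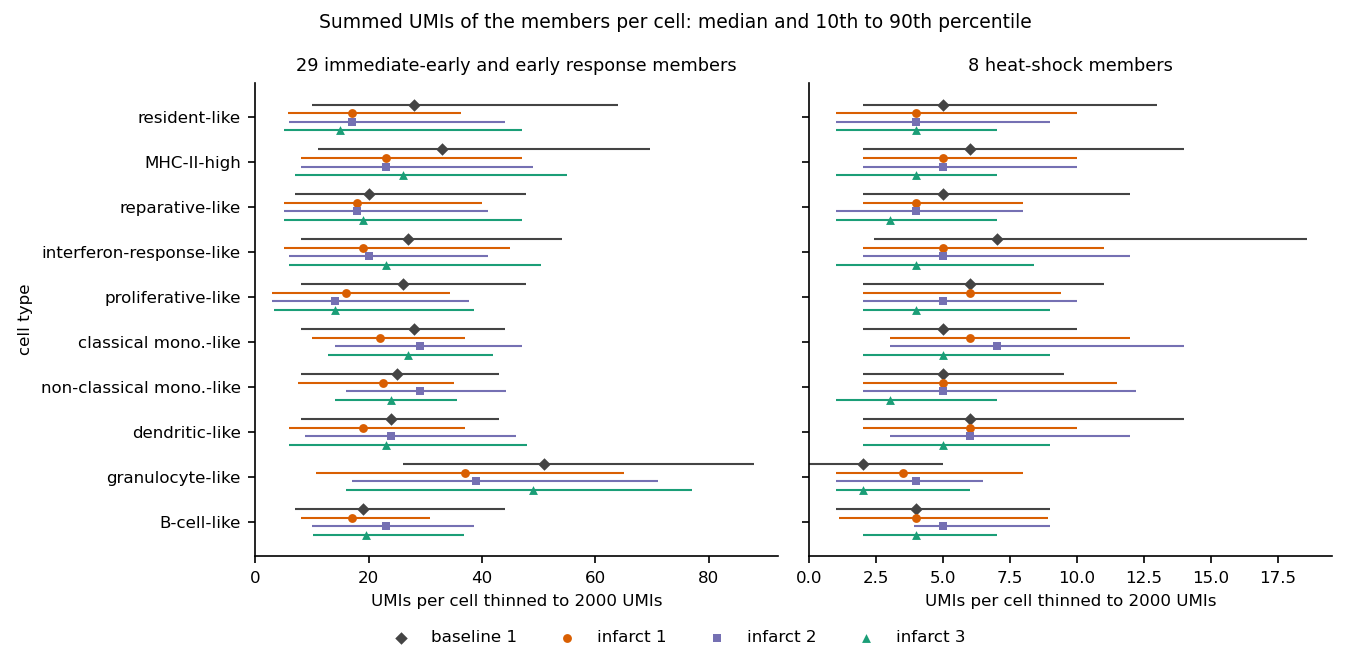
UMIs per cell, after thinning to 2000 UMIs (horizontal), summed over the 29 immediate-early and early response members (left) and the 8 heat-shock members (right), in 10 cell types (vertical). Points are medians over cells of 1 library and bars run from the 10th to the 90th percentile, so they show spread among cells, not error, and the bars of baseline and infarct cells overlap in every type.

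Members also varied together from cell to cell. Across macrophages of a library (6083 to 8638 cells, equal depth after thinning), the Spearman correlation of Fos with Dusp1 was 0.49 at baseline and 0.53, 0.57 and 0.60 in infarct libraries 1 to 3, and that of Fos with Jun was 0.45 at baseline and 0.35, 0.30 and 0.37. Fos with Egr1 gave 0.43 at baseline and 0.31, 0.29 and 0.39, and Fos with Atf3 gave 0.49 at baseline and 0.45, 0.52 and 0.55. All of these pairs were positively correlated in all 4 libraries. Fos with Hspa1a gave 0.23 at baseline and 0.059, 0.074 and 0.11, and the summed immediate-early with the summed heat-shock members gave 0.32 at baseline and 0.023, 0.096 and 0.046. The pair Hspa1a and Hspa1b gave 0.49 at baseline and 0.28, 0.34 and 0.084, lowest in infarct library 3, where their counts were lowest. These correlations are descriptions, since cells of a library share their source, cell type mixture and sparse counts.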

How the data were processed

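EGFP+ Ly6G- cells of mouse hearts were profiled with droplet 3′ chemistry in 1 baseline and 3 infarct libraries. The authors deposited UMI counts per gene and cell barcode, made with Cell Ranger (3.1.0 per the file headers and 3.0.1 per the labels) on mm10, with no normalization. Default counting of this chemistry uses read strand and drops reads that match several genes. The limits of the study were applied to cells (at least 500 and at most 40000 UMIs, more than 200 genes). The kept counts came to 70982109 to 97301304 UMIs per library, and 87.8 to 93.8% of kept cells reached the 2000 UMIs to which cells were thinned for cell types. Shallower cells were left untyped. The UMI limits of the marker gates were set after the counts were seen, and 5.15 to 20.1% of resident-like, 11.4 to 20.1% of reparative-like and 0.357 to 0.946% of MHC-II-high macrophages lay within 1 UMI of a limit. Doublets were not removed in the main values: Scrublet called 1.96% of cells at baseline and 0.00962% or fewer in the infarcts, so it had not worked, and an alternative left out the 8.10 to 8.63% of cells with the highest scores.

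The members and the marker and companion lists were chosen with earlier results of these data known. Every member could be named. Values by library were given for members with at least 50 CPM over all cells of a library and for those past a threshold that a statement turned on, and companion genes were limited to the 3 with the largest change in a list. Counts were summed over the cells of a library and type. Infarct and baseline were compared as CPM without a test, with exact Poisson intervals (95%), over genes with at least 5 CPM on average. Each type was compared with all other cells of the same infarct libraries by edgeR's quasi-likelihood test (TMM, default filter on low counts, Benjamini-Hochberg adjusted p under 0.01), with the library as a block because both sums come from the same heart. Types with at least 20 cells in each infarct library were tested. The p-values rest on how the difference between a type and the other cells varied within 3 hearts. The variance estimate is shared across genes, in part for most types. For non-classical monocyte-like, granulocyte-like and B-cell-like cells the printed SEs and p-values match an estimate shared wholly across genes. A gene's own variation among the 3 hearts then does not enter. None of the p-values measures the spread of levels between animals. The fit was also run on simulated data, drawn with the same mean levels in every heart and a fixed dispersion. These data could not check the block, since the simulated hearts did not differ. At the depth of the reparative-like comparison the fit recovered 86.5% of 2-fold and 100% of 4-fold changes. There 2 unchanged genes were called among 13644 tested. At the depth of B-cell-like cells it recovered 45% and 88%. Alternatives changed the block, tool (DESeq2), scaling, filter, doublets, mitochondrial limit (10%), depth, cell typing and comparison cells, and left out each infarct library. Promoter windows came from RefSeq (GRCm38.p6), and the Hspa1a and Hspa1b transcripts from a separate transcript reference. Tools were Python 3.11.15, scanpy 1.11.5, scipy 1.17.1, R 4.3.3, edgeR 4.0.16 and DESeq2 1.42.0.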

Additional observations from a re-analysis of the deposited data

Results flagged for a closer look

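Egr2 and Myc lay on opposite sides of baseline in different cell types, past 2-fold and in every infarct library. Egr2 in classical monocyte-like cells was at 6.99 CPM in the baseline library and 41.2, 23.7 and 15.1 CPM in infarct libraries 1 to 3, a log2 ratio of 1.93 on 43 UMIs at baseline and 190, 72 and 31 in the infarcts. In proliferative-like cells Egr2 was at 39.3 CPM in the baseline library and 10.8, 6.02 and 15.3 CPM in infarct libraries 1 to 3, a log2 ratio of -1.87 on 49 UMIs at baseline and 20, 17 and 45 in the infarcts. Myc in classical monocyte-like cells had a log2 ratio of 1.10 on 17 UMIs at baseline and 22, 29 and 7 in the infarcts, whereas it was at -1.32 in resident-like macrophages (23.2 CPM in the baseline library and 8.30, 2.74 and 16.96 CPM in infarct libraries 1 to 3), or -2.07 without infarct library 3, and at -1.48 in MHC-II-high macrophages (29.9 CPM in the baseline library and 9.77, 12.9 and 9.49 CPM in infarct libraries 1 to 3). With 1 baseline library these differences between cell types were not tested. The classical monocyte-like, resident-like and MHC-II-high cells of the groups also lay in different clusters, as given above. Egr2 and Myc were not read within clusters. No group had the 4 samples needed to look for a single outlying library.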

How the results depend on the processing

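The counts of members past 2-fold between infarct and baseline stayed within 1.5 times under every alternative run, from 8 to 11 over all cells and from 11 to 15 in macrophages when 1 infarct library was left out. Single log2 ratios short of 2-fold under TMM scaling were those of Jun (-0.93), Klf6 (-0.91) and Dnaja1 (-0.91) in macrophages and of Klf6 (-0.82) and Myc (-0.88) over all cells, and Myc also moved in macrophages (-1.26 under TMM, -1.65 as a mean of each cell's CPM and -1.59 after thinning) and over all cells (-1.30 as that mean). No paired analysis was possible for that comparison because there is 1 baseline library. Of 198 calls of members in the tests of cell types, 51 held under every alternative and 147 were lost under at least 1. The replicate block mattered most, with 134 calls lost without it. Fewer of all genes were also called without the block in each type, as given with the types above. Without the replicate block edgeR called 3 members in resident-like, 2 in MHC-II-high, 6 in reparative-like and 0 in interferon-response-like macrophages, 12 in proliferative-like, 10 in classical and 11 in non-classical monocyte-like, 14 in dendritic-like, 4 in granulocyte-like and 2 in B-cell-like cells. Leaving out 1 infarct library gave 7 to 20 in resident-like, 13 to 26 in MHC-II-high, 16 to 23 in reparative-like and 9 to 13 in interferon-response-like macrophages, 7 to 26 in proliferative-like, 15 to 21 in classical and 15 to 17 in non-classical monocyte-like, 21 to 25 in dendritic-like, 7 to 21 in granulocyte-like and 5 to 12 in B-cell-like cells. Thinning each cell to 2000 UMIs left 9 in interferon-response-like macrophages, beside 627 genes higher and 212 lower of 11581 over all genes. The Wald test of DESeq2 called 9 in granulocyte-like and 5 in B-cell-like cells. With types taken from clusters, the log2 fold change of Hsp90aa1 in MHC-II-high macrophages turned to -0.021 and that of Egr2 in classical monocyte-like cells to -1.04, and the resident-like cluster held 13, 36 and 18 cells of the infarct libraries, below the minimum of 20 in each, so that alternative gave no value there. Against macrophages alone, Dusp5 in MHC-II-high macrophages turned to 0.52, and its level in the monocyte-like and dendritic-like cells so left out is given above. The causes of these changes were not tested. Depth limits members such as Egr3, Maff and Cyr61, which had few UMIs in the smaller types.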
